A study of Mus musculus with 38 samples.

Results

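The immunoglobulin heavy and light chain genes were examined in bulk RNA-Seq of mouse kidney, in 38 libraries from 3 experiments on FGF23, the phosphate-regulating hormone of bone. The genes were chosen by their names and selected on their raw counts: of the 383 rows whose symbol begins as a variable, diversity or constant gene of the heavy, kappa or lambda locus, or is Jchain, those with at least 10 raw counts in at least 3 of the 38 libraries were kept. This left 17 of the 55487 genes counted. They are 6 heavy chain constant genes (Ighm, Ighd, Ighg1, Ighg2b, Ighg2c and Igha), the kappa constant gene Igkc, the lambda constant gene Iglc1, 1 heavy chain variable gene (Ighv2-2), 5 kappa variable genes (Igkv1-110, Igkv1-117, Igkv6-25, Igkv8-24 and Igkv10-96), the lambda variable gene Iglv1, and Jchain. The 17th, Ighmbp2, is no immunoglobulin gene: it lies on chromosome 19, encodes a DNA and RNA helicase, and begins with the same letters as Ighm. The other 16 lie on chromosome 12 (heavy chain), 6 (kappa), 16 (lambda) and 5 (Jchain) of GRCm38.

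The anti-GBM experiment held kidneys of 14 male C57BL/6 mice, 10 weeks old at the end, in which anti-glomerular basement membrane disease was induced by immunization with sheep IgG in Freund's complete adjuvant and, 4 days later, nephrotoxic serum. It had 4 healthy mice given vehicle (PBS with albumin), 3 healthy mice given FGF23, 4 diseased mice given vehicle and 3 diseased mice given FGF23 (recombinant human protein, 6 daily intravenous injections of 1 µg, kidneys taken 24 h after the last). The Adriamycin experiment held kidneys of 16 female BALB/c mice, 4 in each of the same 4 kinds of group, with disease from 1 intravenous injection of the podocyte toxin Adriamycin and vehicle or 1 µg of FGF23 injected once. Their kidneys were collected 24 h later, at an age of 10 weeks. The third experiment held 8 precision-cut kidney slice (PCKS) cultures made from male DBA/2J mice fed 0.2% adenine, a diet that damages the tubules, at 23 weeks of age, 4 with vehicle and 4 with FGF23, without slices from healthy mice. The labels give 1 h of treatment for the slices and the study's text gives 24 h. Strain, sex, age, slice culture, disease and experiment go together and cannot be told apart between experiments. In the anti-GBM experiment, control mice were treated with PBS by the study's text. The immunization, adjuvant and serum given to the diseased mice therefore cannot be told apart from the kidney disease. GRCm38 is C57BL/6 sequence, and heavy chain constant and variable genes differ between inbred strains (C57BL/6 carries Ighg2c where BALB/c carries Ighg2a), so that reads from BALB/c and DBA/2J mice can be missed or assigned to a related gene. The labels do not say which mice the slices were cut from, and p-values measure the spread between these libraries.

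An antibody is made of paired heavy chains and paired light chains, the latter from either the kappa or the lambda locus. Each B cell joins 1 variable gene to shorter segments and to a constant gene, and its progeny keep that variable gene. The variable genes read in a tissue thus depend on the clones it holds, though many clones can use 1 gene. The heavy chain constant gene tells of the antibody class. Naive B cells make IgM and IgD from the same transcript, activated B cells may switch to IgG, IgE or IgA, and plasma cells make very large amounts of immunoglobulin mRNA and, with IgM and IgA, the joining chain that links antibodies into polymers. In RNA from a piece of kidney, fewer cells of a type and less RNA per cell cannot be told apart.

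The 2 variable genes on which the slice data turn are Ighv2-2, a heavy chain gene, and Igkv8-24, a kappa gene, shown as the stretch at the end of the variable exon. Sequences are from the GRCm38 genome, read along the strand of the gene, and the capitals mark the codons for tyrosine, a second residue (tyrosine or phenylalanine) and the conserved cysteine near the end of the variable exon. In the antibody, the joined segments follow a few bases further on, after 8 more bases of Ighv2-2 and 23 more of Igkv8-24 as the genome holds them. The Ighv2-2 stretch is chr12:113588267-113588566 and the Igkv8-24 stretch is chr6:70216858-70217157, both on the minus strand, in the exon that encodes the variable domain.

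Ighv2-2: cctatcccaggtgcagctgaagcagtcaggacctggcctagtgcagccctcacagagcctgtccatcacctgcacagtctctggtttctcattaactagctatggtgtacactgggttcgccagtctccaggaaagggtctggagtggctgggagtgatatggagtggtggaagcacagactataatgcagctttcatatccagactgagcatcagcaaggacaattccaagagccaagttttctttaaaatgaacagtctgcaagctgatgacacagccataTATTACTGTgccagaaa
Igkv8-24: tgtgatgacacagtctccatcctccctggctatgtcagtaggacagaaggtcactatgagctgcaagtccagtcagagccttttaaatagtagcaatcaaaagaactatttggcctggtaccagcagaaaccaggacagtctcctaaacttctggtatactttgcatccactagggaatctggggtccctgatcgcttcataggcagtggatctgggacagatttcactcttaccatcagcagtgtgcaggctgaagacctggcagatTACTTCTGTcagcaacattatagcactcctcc

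The pattern TANTNNTGN, in which the marked codons fit, was found on the coding strand of 110 of 115 annotated heavy chain variable exons (95.7%), 99 of 100 kappa exons (99.0%) and 2 of 3 lambda exons, and on the other strand of 22, 36 and 0, so that it marks the family rather than these genes. Ighv2-2 has a near relative, Ighv2-4, identical over 98% of the exon and over a run of 128 bases, longer than the 58-base reads. Igkv8-24 is better separated: its nearest relative, Igkv8-30, is identical over 91.8%, and 0 of the 99 other kappa genes compared share a run of 58 bases with it. How the authors' counting treated reads that match several genes is not given in the sources used here, so counts of single variable genes with near copies are uncertain.

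Igkv1-110 and Igkv1-117 show how close such copies are, and each led the kappa reads of 1 diseased anti-GBM mouse (NTS7 and NTS14, described below). On few reads, Igkv1-117 also led in Adriamycin mice Ad2, Ad5, Ad7 and Ad12 and was tied for the lead in healthy mouse NTS4. Igkv1-110 was tied for the lead in Ad4 and Ad6. Their stretches, chr6:68270968-68271267 and chr6:68121528-68121827 on the plus strand, differ at 10 positions, given in capitals, and the exons are identical over 96.8%, with a common run of 142 bases.

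Igkv1-110: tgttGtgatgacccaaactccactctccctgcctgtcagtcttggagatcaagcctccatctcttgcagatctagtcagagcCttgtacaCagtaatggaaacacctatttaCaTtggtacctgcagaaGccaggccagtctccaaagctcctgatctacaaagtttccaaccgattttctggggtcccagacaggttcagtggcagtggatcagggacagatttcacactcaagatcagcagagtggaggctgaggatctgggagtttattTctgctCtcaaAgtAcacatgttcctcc
Igkv1-117: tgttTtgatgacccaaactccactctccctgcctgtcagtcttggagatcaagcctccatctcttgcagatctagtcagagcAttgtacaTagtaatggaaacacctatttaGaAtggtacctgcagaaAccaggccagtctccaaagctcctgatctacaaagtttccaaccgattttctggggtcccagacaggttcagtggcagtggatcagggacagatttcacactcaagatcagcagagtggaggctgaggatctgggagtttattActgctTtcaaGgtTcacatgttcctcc

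Total counts per library reached from 13704248 to 23630210 for the anti-GBM mice, from 15665050 to 27583911 for the Adriamycin mice and from 11186925 to 16254987 for the slices, so that 1 read was worth 0.0469 to 0.0720, 0.0366 to 0.0643 and 0.0586 to 0.0910 CPM (reads scaled by TMM to libraries of 1 common size). All 10 kidney markers were detected in every library, among them Umod, the tubular glycoprotein uromodulin, at 1169 to 5718 CPM, but several ran low in some libraries, such as Aqp2, a water channel of the collecting duct, at 5.8 to 553.2 CPM. The kidney list summed to 11070 to 17260 CPM in the mice and to 2476 to 7905 CPM in the slices. The genes kept held 99.7% of heavy chain constant counts, all Igkc counts and 67.6% of lambda constant counts, whereas they held 11% of heavy chain variable counts and 28.5% of kappa variable counts. Of the 383 rows, 171 had no count in any library. Just inside the limit, with 10 counts in exactly 3 libraries, were Igkv1-117, Igkv10-96, Igkv6-25 and Ighg2c, the last with 12 counts in mouse NTS14, 29 in vehicle slice 1 and 17 in vehicle slice 3. Just outside it, with 2 libraries, were 9 variable genes: Igkv3-2, Igkv3-7, Igkv6-23, Igkv19-93 and Ighv1-82 in vehicle slices 1 and 3, Igkv17-121 in FGF23 slices 1 and 3, Igkv3-12 in FGF23 slices 2 and 4, and Igkv12-44 and Igkv8-21 in other pairs. Ighg3 had 42 counts in all, Iglc2 104, Iglc3 55 and Ighe, the IgE gene, 0.

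Immunoglobulin mRNA was a small part of the kidney libraries and was highest in the adenine slices. The 16 genes summed to 20.4 ± 3.6 CPM (SD, n = 4) in healthy C57BL/6 mice given vehicle, 22.95 ± 3.47 (n = 3) in healthy mice given FGF23, 31.46 ± 8.55 (n = 4) in anti-GBM mice given vehicle and 43.78 ± 16.4 (n = 3) in anti-GBM mice given FGF23. The Adriamycin groups, in BALB/c mice, ran from 9.18 ± 1.85 CPM (n = 4, disease with FGF23) to 13.19 ± 2.28 (n = 4, healthy with vehicle), with 10.17 ± 1.04 in healthy mice given FGF23 and 10.81 ± 0.985 in diseased mice given vehicle (n = 4 each). Slices held 128.8 ± 68.5 CPM with vehicle and 73.2 ± 58.9 with FGF23 (n = 4 each), with single slices from 32.37 to 224.1, and the FGF23 mean was 44.59 without FGF23 slice 3. In this order of means the slice groups overlapped each other (66.53 to 224.1 with vehicle and 32.37 to 159.0 with FGF23), and the FGF23 slices overlapped the anti-GBM mice given FGF23 (32.34 to 62.56).

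Which class led differed by experiment. Per kilobase of exon, Igkc was the highest of the constant genes in healthy C57BL/6 mice given vehicle, at 7.202 CPM per kb, before Ighm (4.617), Igha (1.826) and Ighd (0.5709), and Jchain was at 0.4841. In vehicle slices Igkc was at 90.06 CPM per kb and Igha, the IgA gene, at 19.75, above Ighm at 3.484. The Igha to Ighm ratio per kilobase was 1.44 to 11.4 in the 8 slices, 0.113 to 1.04 in the 14 C57BL/6 mice and 0.0701 to 0.187 in the 16 BALB/c mice. IgA thus made up 56.6 to 88.2% of heavy chain constant reads in each slice, while the Ighm level itself in slices (5.208 to 8.188 CPM) lay within that of the mice (4.706 to 16.91 CPM). Ighmbp2, the helicase gene, was at 5.559 to 14.44 CPM.

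**Figure D1:**
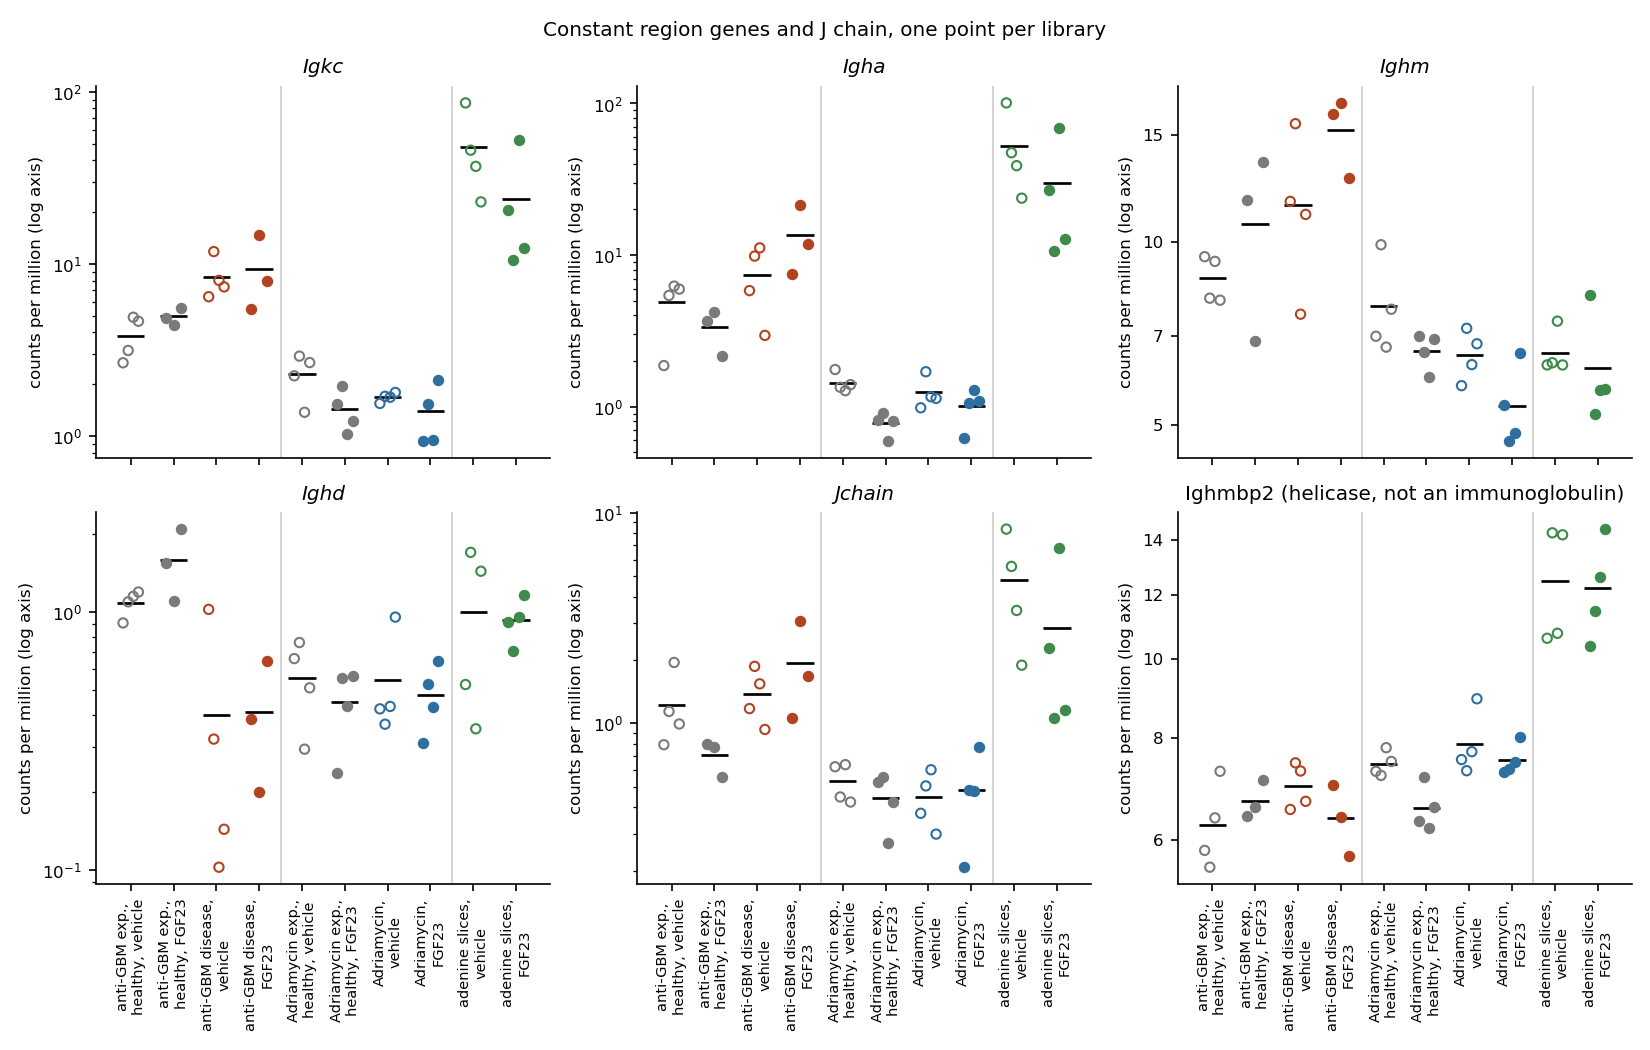
Expression of Igkc, Igha, Ighm, Ighd, Jchain and Ighmbp2 in CPM (log axis), 1 point per library in 10 groups, open for vehicle and filled for FGF23, with a bar at the group mean. Igkc, Igha and Jchain were highest in the adenine slices, at up to 86.14, 100.9 and 8.368 CPM, and Ighd was lowest in anti-GBM disease, down to 0.1027 CPM.

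The first comparison set the diseased anti-GBM mice against the healthy ones, with both treatments in 1 fit. Disease here includes the immunization and serum that induced it. Igkc, Igha, Ighm and Jchain rose in disease and Ighd, the IgD gene, fell. The log2 fold change of Igkc was 1.13 in mice given vehicle and 0.92 in mice given FGF23. Those of Igha and Jchain were larger in mice given FGF23, but the differences were not called (adjusted p = 0.615 and 0.589 by edgeR). For Jchain, FGF23 against vehicle was -0.77 in healthy and 0.48 in diseased mice, the latter -0.01 without mouse NTS14. IgG reads were few in every mouse, and most of them came from diseased kidneys. The count rule took the IgG genes partly through diseased mice, so this stands as a description. By edgeR's quasi-likelihood test, 7 of the 17 genes passed the filter on low counts, and 4 were higher and 1 lower at an adjusted p below 0.05. Among all 15859 genes tested, 23.6% were higher and 24.7% lower, 48.3% in either direction, so the disease moved a large share of all genes, and the 7 genes passed the filter because they were expressed in these kidneys. Their median log2 fold change was 0.46 and that of all genes -0.02.

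Igkc, which every kappa light chain uses, was at 2.66, 3.14, 4.89 and 4.64 CPM in the 4 healthy mice given vehicle and at 4.84, 4.42 and 5.57 in the 3 given FGF23. In diseased mice it was at 6.44, 11.78, 8.01 and 7.34 CPM with vehicle and at 5.43, 14.71 and 7.92 with FGF23. Of the 7 diseased mice, 6 lay above every healthy mouse, and mouse NTS13 lay just under the highest of them. The rise was 1.03 on the log2 scale (SE, the standard error, 0.22, adjusted p = 0.00172 by edgeR), and it stayed between 0.80 and 1.18 and past the threshold with each of the 14 mice left out. Iglc1, the lambda constant gene, was at 0.05659 to 1.127 CPM in healthy and 0.04951 to 1.051 in diseased mice, with a log2 fold change of -0.01 (SE 0.72, adjusted p = 0.991 by edgeR).

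Igha was at 1.87, 5.42, 6.24 and 5.96 CPM in healthy mice given vehicle and at 3.66, 4.23 and 2.16 in those given FGF23. In disease it was at 5.83, 9.85, 11.15 and 2.95 CPM with vehicle and at 7.50, 21.27 and 11.83 with FGF23. The groups overlapped, with 5 of 7 diseased mice above all healthy ones and mice NTS5 and NTS8 inside the healthy range. Igha rose by 1.31 on the log2 scale (SE 0.33, adjusted p = 0.00514 by edgeR), between 1.08 and 1.47 with each mouse left out. In the mice given vehicle the log2 fold change was 0.62 (adjusted p = 0.277 by edgeR) and in those given FGF23 1.99 (adjusted p = 0.0104), and the difference between them, 1.37, did not pass the threshold (adjusted p = 0.615 by edgeR).

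Jchain, the joining chain of polymeric IgA and IgM, was at 0.79, 1.14, 1.95 and 0.99 CPM in healthy mice given vehicle and at 0.80, 0.77 and 0.56 in those given FGF23. In disease it was at 1.18, 1.87, 1.54 and 0.94 CPM with vehicle and at 1.06, 3.05 and 1.68 with FGF23. Only mouse NTS14 lay above every healthy mouse. The rise of 0.79 on the log2 scale (SE 0.28, adjusted p = 0.0286 by edgeR) was 0.56 to 0.99 with each mouse left out and lost the threshold without NTS6, NTS11 or NTS14. Its log2 fold change was 0.17 (adjusted p = 0.737 by edgeR) in mice given vehicle and 1.42 (adjusted p = 0.0229) in mice given FGF23, a difference of 1.25 with an adjusted p of 0.589 by edgeR.

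Ighm, the IgM gene, was at 9.45, 8.08, 9.28 and 8.02 CPM in healthy mice given vehicle, at 11.69, 6.88 and 13.52 in healthy mice given FGF23, at 11.65, 15.63, 7.60 and 11.09 in diseased mice given vehicle and at 16.24, 16.91 and 12.72 in diseased mice given FGF23. Of the 7 diseased mice 3 lay above all healthy ones. Ighm rose by 0.46 (log2, SE 0.16, adjusted p = 0.0318 by edgeR), between 0.34 and 0.60 with each mouse left out, and lost the threshold without NTS6, NTS10, NTS13 or NTS14.

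Ighd, which naive B cells express beside Ighm, moved the other way. It was at 0.91, 1.09, 1.15 and 1.19 CPM in healthy mice given vehicle and at 1.55, 1.11 and 2.09 in those given FGF23, against 1.02, 0.32, 0.10 and 0.14 in diseased mice given vehicle and 0.38, 0.20 and 0.64 in those given FGF23. Mouse NTS5 was the diseased mouse within the healthy range, and the other 6 lay below every healthy mouse. Ighd fell by 1.65 on the log2 scale (SE 0.39, adjusted p = 0.00294 by edgeR) and stayed past the threshold with each mouse left out. The Ighm to Ighd ratio per kilobase was 6.26 to 10.5 in healthy and 11.5 to 85.1 in diseased mice, without overlap. This ratio was computed after the values were seen and was not tested.

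When the mice were compared within treatment, by edgeR on the same fit, Igkc and Ighd passed the threshold in the mice given vehicle, where 39.8% of all genes did, with log2 fold changes of 1.13 (adjusted p = 0.00801) and -1.38 (adjusted p = 0.0479). In the mice given FGF23, where 27.2% of all genes passed, Igha, Jchain and Ighd did, the last at -1.92 (adjusted p = 0.0229 by edgeR), while Igkc was at 0.92 (adjusted p = 0.053). Ighm was at 0.40 and 0.52 and passed in neither. Ighmbp2 changed by 0.05 across both treatments (SE 0.09, adjusted p = 0.692 by edgeR).

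**Figure D2:**
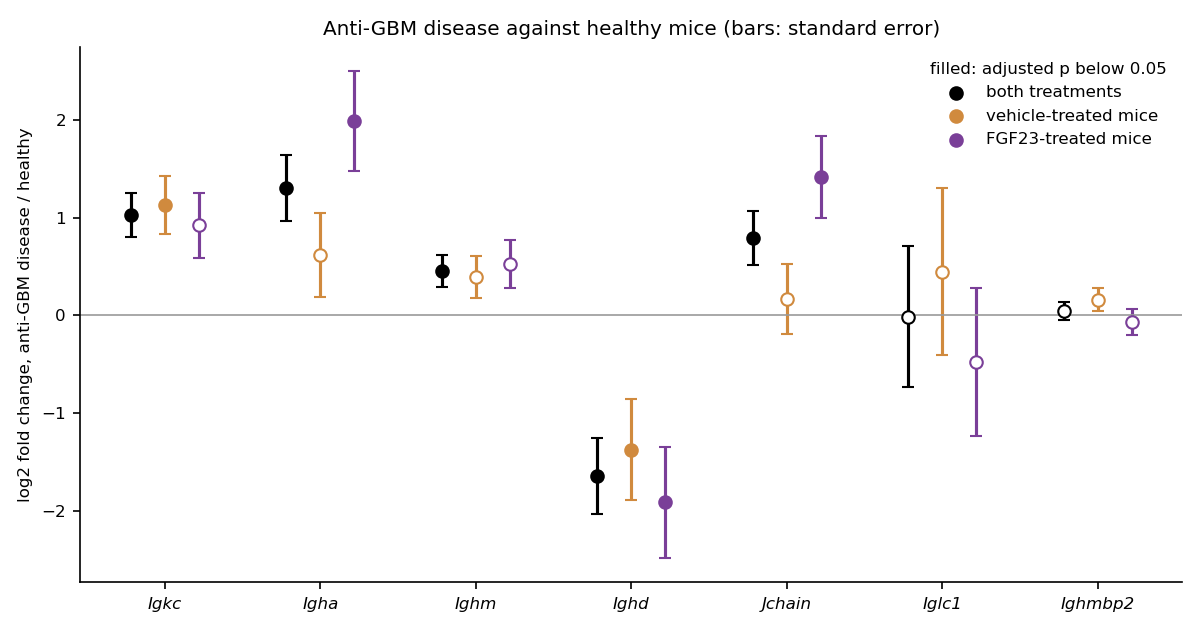
Log2 fold change of anti-GBM disease against healthy mice for the 7 genes tested, over both treatments (black), in vehicle-treated mice (orange) and in FGF23-treated mice (purple), with standard errors as bars and filled points for an adjusted p below 0.05 by edgeR. Igkc stood near 1 in each of the 3, and Ighd stood below -1. The fold changes of Igha and Jchain were larger in the FGF23-treated mice, at 1.99 and 1.42, but the differences were not called.

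The IgG genes were near the limit of what the depth can show and did not pass the filter. Ighg2b, the IgG2b gene, had 0, 0, 0 and 1 reads in the healthy mice given vehicle and 4, 2 and 2 in those given FGF23, against 2, 18, 18 and 5 in diseased mice given vehicle and 6, 7 and 4 in those given FGF23. Ighg1 had 0, 0, 2 and 0 reads, then 3, 7 and 1, against 3, 11, 3 and 0, then 8, 18 and 8 in the same order of groups. Ighg2c was at 0 in all 7 healthy mice and had 7 reads in NTS6, 1 in NTS7, 12 in NTS14 and 1 in NTS16. Summed over mice, healthy and diseased kidneys gave 13 and 51 reads of Ighg1, 9 and 60 of Ighg2b, and 0 and 21 of Ighg2c.

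Without the filter, edgeR called 9 of the 17 genes, where 23.7% of 30487 genes were called, and Ighg1, Ighg2b, Ighg2c and Igkv1-117 were the 4 added. Each of these reached 10 counts in 3 libraries only with diseased mice included (NTS6, NTS7, NTS14 or NTS16), so the rule used this contrast, the values stand as a description and nothing is read from the calls. For Ighg2b, 6 of 7 diseased mice lay above all healthy mice, and for Ighg1 and Ighg2c 4 of 7. The Igkv1-117 reads in diseased mice numbered 64, of which 36 came from NTS14.

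**Figure D3:**
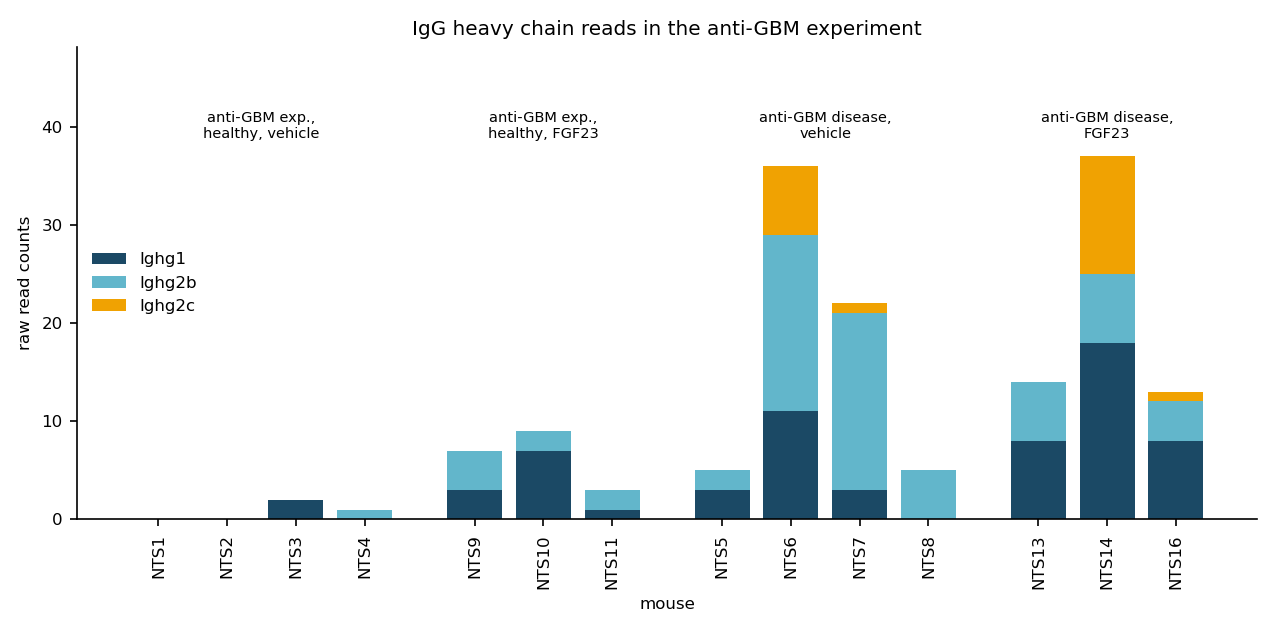
Raw read counts of Ighg1, Ighg2b and Ighg2c in each of the 14 mice of the anti-GBM experiment, stacked. Healthy mice had up to 9 IgG reads and diseased mice 5 to 37, with the highest sums in NTS6 and NTS14.

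Genes of the cells and signals around immunoglobulins were counted from fixed lists. In anti-GBM disease, 8 of the 12 plasma cell genes tested rose and 1 fell, with a median log2 fold change of 0.71, where 23.6% of all genes rose and 24.7% fell. These shares of all genes stand beside each list of this comparison. Of the 4 with the smallest p, Creld2 (1.56), which acts in protein folding in the endoplasmic reticulum, Sdc1 (0.97), which encodes the surface proteoglycan syndecan-1, and Xbp1 (0.46), a transcription factor of secretory cells, rose, and Prdm1, which encodes the regulator Blimp-1, fell (-1.15). Derl3 (1.92), of the disposal of misfolded proteins, and Irf4 (1.52), a transcription factor of plasma cells, rose too, and were named after their values were seen. The adjusted p of these 6 genes was 0.000369 or lower by edgeR. Several of these are also expressed by kidney or myeloid cells. The more specific Mzb1 and Tnfrsf17 had too few reads to be tested: Mzb1 had 14 and 18 reads in healthy mice given vehicle and FGF23 and 24 and 25 in diseased mice, and Tnfrsf17 had 4 or fewer in every group of that experiment.

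Of the 13 B cell genes tested, 2 rose and 3 fell, no more than the 23.6% and 24.7% of all genes would give. Cd79a (-1.46, adjusted p = 0.00199 by edgeR), the signalling chain of the B cell receptor, and Cr2 (-0.56, adjusted p = 0.038), a complement receptor, were among those that fell with Ighd, while Cd37 (0.83) and Spib (1.05), which other leukocytes also express, rose. Ms4a1 and Pax5, too low to test, had 35 and 42 reads in healthy and 12 and 12 in diseased mice given vehicle. The sum of the list was 17.5 to 23.6 CPM in healthy mice and 13 to 21.2 in diseased mice.

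Among B cell survival and recruitment signals, 4 of 6 rose, against 23.6% of all genes: Cxcl13 (2.62), a chemokine that draws B cells to follicles, Tnfsf13b (1.39), which encodes BAFF, Tnfsf13 (0.90), which encodes APRIL, and Cxcr4 (0.73). Of 9 antibody receptors and transporters tested, Fcgr1 (2.76), Fcgr3 (2.42), Fcgr4 (2.04) and Fcer1g (1.92) of the Fc receptor complexes of phagocytes rose, and Fcamr (-2.0) and Pigr (-0.77), which bind polymeric IgM and IgA, fell. Of 5 germinal centre and class switch genes tested, Ung (1.20), S1pr2 (1.08) and Apex1 (0.43) rose.

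Markers of other cells moved with disease. All 9 macrophage genes and 7 of 10 T cell genes rose, against 23.6% of all genes. Of the 10 kidney genes, 3 fell (Kl at -0.65, Lrp2 at -0.57 and Slc34a1 at -0.54) and 1 rose, and the list summed to 15010 to 17260 CPM in healthy and 11070 to 13850 in diseased mice. Of the 5 adipocyte genes tested, 2 fell, Plin1 (-3.22) and Adipoq (-3.06), where 24.7% of all genes fell, with sums of 30.5 to 167 CPM in healthy and 35.3 to 94.8 in diseased mice. Of the lymph node stroma list, Ccl21a and Glycam1 were at 0 in all mouse groups, and the summed level was at most 7.157 CPM (NTS5). The part of these other cells in the immunoglobulin values was not tested.

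FGF23 was compared with vehicle within healthy and within diseased mice, and 0 of the genes were called by edgeR or DESeq2. In the anti-GBM experiment, edgeR called 0% of all genes in healthy mice and 0.24% in diseased mice, and 0.0315% in the test of the difference between both. At an unadjusted p below 0.05 there were 689, 1998 and 1316 genes, and 0, 0 and 1 of the 7 genes tested here, the last being Jchain. The log2 fold changes with FGF23 ran from -0.77 (Jchain) to 1.55 (Iglc1) in healthy mice, where the adjusted p by edgeR was 0.996 for each, and from -0.13 to 0.85 (Igha) in diseased mice, with adjusted p from 0.431 to 0.994. In healthy mice the standard errors were 0.49 for Igha and 0.41 for Jchain.

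The Adriamycin kidneys had the fewest immunoglobulin reads, and 0 of the 6 genes tested were called in disease by edgeR or DESeq2, where edgeR called 1.94% of all genes and 2404 had an unadjusted p below 0.05. Ighm was at 5.987 to 9.888 CPM (median 6.959) in healthy mice and 4.706 to 7.208 (median 6.042) in diseased mice, 4 of 8 diseased mice lying below all healthy ones. Its log2 fold change was -0.29 (SE 0.09, adjusted p = 0.141 by edgeR). Igkc was at 1.025 to 2.908 and 0.934 to 2.122 CPM, and Ighd at 0.2384 to 0.7606 and 0.3113 to 0.954 CPM, with overlap in both.

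With FGF23, edgeR called 0% of all genes in healthy and 0.0375% in diseased Adriamycin mice and 0% for the difference, with 1072, 912 and 819 genes at an unadjusted p below 0.05. Of the 6 genes tested, 3, 1 and 0 were at an unadjusted p below 0.05 and 0 passed. The 3 in healthy mice were Igha, Igkc and the helicase gene Ighmbp2. Igha was at 1.76, 1.34, 1.27 and 1.40 CPM in healthy mice given vehicle and at 0.81, 0.91, 0.59 and 0.80 in healthy mice given FGF23. This was a log2 fold change of -0.88 (SE 0.23, adjusted p = 0.688 by edgeR). The 2 groups did not overlap for Igha, nor for Ighmbp2 (7.203 to 7.79 against 6.203 to 7.172 CPM). The share of all genes without overlap was not computed. Igkc was at -0.67 in the same comparison (SE 0.27, adjusted p = 0.689 by edgeR), with overlapping groups. IgG reads, with Ighg3 included, numbered 0 to 8 per mouse.

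In the slices, edgeR called 0% of 15090 genes between FGF23 and vehicle, and 0 of the 10 genes tested here, with 738 of all genes and 3 of the 10 at an unadjusted p below 0.05 (Iglc1, and Ighv2-2 and Igkv8-24, which the count rule took mainly through vehicle slices). Slices of 1 treatment differed widely. Igkc was at 86.14, 45.75, 36.85 and 22.91 CPM in vehicle slices 1 to 4 and at 20.56, 10.56, 52.35 and 12.36 in FGF23 slices 1 to 4. Igha was at 100.9, 47.34, 38.88 and 23.74 with vehicle and at 27.02, 10.63, 68.53 and 12.86 with FGF23. For both genes FGF23 slice 3 lay among the vehicle slices, and the other FGF23 slices lay at the low end.

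The log2 fold change with FGF23 was -1.01 for Igkc (SE 0.51) and -0.83 for Igha (SE 0.57), each with an adjusted p of 0.849 by edgeR. Leaving out single slices moved Igkc between -1.74 (without FGF23 slice 3) and -0.56 (without vehicle slice 1), and Igha between -1.66 and -0.31 with the same slices. Jchain was at 8.37, 5.56, 3.44 and 1.89 CPM with vehicle and at 2.27, 1.06, 6.84 and 1.16 with FGF23, in the same order of slices as Igkc and Igha within the vehicle slices. Its log2 fold change was -0.79 (SE 0.59, adjusted p = 0.849 by edgeR), -1.71 without FGF23 slice 3 and -0.39 without vehicle slice 1. Ighm was even across slices, from 6.28 to 7.40 CPM with vehicle and from 5.21 to 8.19 with FGF23.

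The kidney list summed to 2476 to 5483 CPM in the vehicle slices and to 4132 to 7905 in the FGF23 slices, and the part of this difference in tissue in the immunoglobulin values was not tested. The B cell list summed to 28.02 to 28.83 CPM in the 4 vehicle slices and 24.75 to 30.62 in the 4 FGF23 slices, while Igkc varied over 22.91 to 86.14 within the vehicle slices. The plasma cell markers Mzb1 and Tnfrsf17 had 6 and 0 reads in all vehicle slices and 3 and 0 in all FGF23 slices, although these libraries held the most Igkc and Igha. Tnfrsf17 at 0 reads allows up to 3 reads per group. Of the plasma cell list, Derl3 was at 110 ± 14.3 CPM in vehicle slices (SD, n = 4) against 0.641 ± 0.214 in healthy C57BL/6 mice (n = 4), with strain and experiment not to be told apart.

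The variable genes of the set differed widely between slices, and B cell clones were not identified. Ighv2-2 had 32, 96, 10 and 35 reads in vehicle slices 1 to 4 and 0 reads in each of the 4 FGF23 slices. Igkv8-24 had 40, 201, 15 and 67 reads in vehicle slices and 0, 4, 6 and 1 in FGF23 slices. Neither overlapped between treatments, and the share of all genes without overlap in the slices was not computed. The ratio of Igkv8-24 to Ighv2-2 reads was 1.25, 2.09, 1.5 and 1.91 in the 4 vehicle slices.

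Ighv2-2 met the count rule through the vehicle slices alone, and Igkv8-24 through these and 1 mouse, so that a difference between treatments had to follow, and the values stand as a description. For Ighv2-2 the vehicle slices, with their reads summed, held 3.14 CPM. This was 51.2-fold more than the 0.0615 CPM that a limit of 3 reads over the summed FGF23 slices allows. The limit covers counting error only and not the spread between slices, which was 10 to 96 reads with vehicle. DESeq2, which called 0.0199% of all genes, called 2 of the set, and edgeR without the filter, which called 0.00674%, called 2 as well, Ighv2-2 and Igkv8-24 each time. Since the rule used these counts, nothing is read from those calls. In the 30 mice of the other experiments Ighv2-2 had 5 reads, in 5 mice, and Igkv8-24 had 28 reads in 12 mice with 11 at most.

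Lambda chain genes did not show this pattern in the slices, and most of their reads with FGF23 came from slice 3. Iglc1 had 7, 13, 11 and 6 reads with vehicle and 19, 11, 128 and 11 with FGF23, and Iglv1 had 3, 7, 3 and 5 against 15, 3, 76 and 8. The Iglc1 log2 fold change of 2.40 (SE 0.85, adjusted p = 0.849 by edgeR) was 0.72 without FGF23 slice 3. As a share of light chain constant reads, lambda was 1.37, 2.74, 3.24 and 3.50% in vehicle slices and 10.7, 9.64, 18.1 and 10.2% in FGF23 slices, without overlap. This share was chosen after the values were seen and was not tested. FGF23 slices 2 and 4 had 16 and 17 lambda constant reads, within the 11 to 22 of the vehicle slices. Their higher shares went with fewer Igkc reads, 150 and 149 against 303 to 1153 with vehicle.

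Among heavy chain variable reads, Ighv2-2 led vehicle slice 2 with 53.9% of 178 reads (95% exact Clopper-Pearson interval 46.3 to 61.4) and vehicle slice 4 with 56.5% of 62 reads (43.3 to 69.0). Ighv1-82 led vehicle slice 1 with 21.4% of 313 reads (17 to 26.4). It was the leading gene in vehicle slice 3 too, with 12.8% of 86 (6.56 to 21.7), but only by 11 reads against 10 of Ighv2-2. Ighv9-1 led FGF23 slices 1 and 3, with 21.2% of 33 and 29.8% of 121 reads. The pairs 1 with 3 and 2 with 4 thus had the same leading heavy chain gene, except for FGF23 slices 2 (Ighv3-2, 17.6% of 34 reads) and 4 (Ighv1-66, 21.7% of 23 reads). These intervals, and limits from counts of 0, cover counting error only, since PCR copies of 1 molecule are not independent.

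Kappa reads were split the same way. Igkv8-24 led vehicle slices 2 and 4, with 45.8% of 439 reads (41.1 to 50.6) and 50.0% of 134 (41.2 to 58.8). Igkv3-2 led vehicle slices 1 and 3, with 26.2% of 596 reads (22.7 to 29.9) and 10.2% of 206. Igkv17-121 led FGF23 slices 1 and 3, with 12.2% of 82 and 8.27% of 266, and Igkv3-12 had 20.5% of 83 reads in FGF23 slice 2 and 15.3% of 85 in FGF23 slice 4, where Igkv3-5 led with 21.2%. The effective number of kappa genes (the inverse Simpson index of the shares) was 4.45 and 3.82 in vehicle slices 2 and 4, and 9.45, 19.7 and 28.1 in vehicle slices 1 and 3 and FGF23 slice 3.

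**Figure D4:**
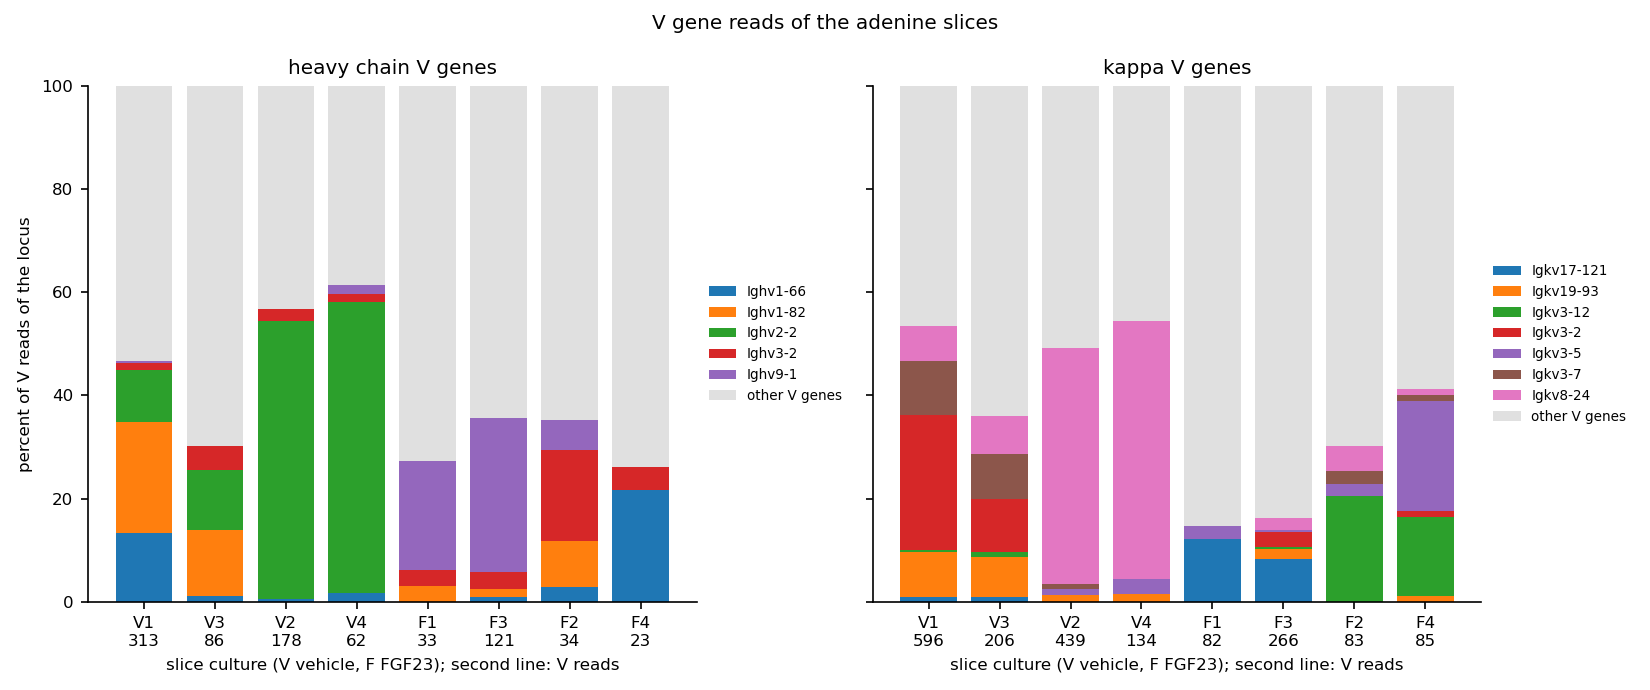
Percent of heavy chain (left) and kappa (right) variable gene reads taken by the leading genes in each of the 8 slices (V vehicle, F FGF23), with the number of reads under each bar and all other genes in grey. Slices V2 and V4 were led by Ighv2-2 (53.9 and 56.5%) and Igkv8-24 (45.8 and 50.0%), and V1 and V3 by Ighv1-82 and Igkv3-2. In V3, Ighv1-82 had 11 reads and Ighv2-2 had 10.

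Over all variable genes, the overlap of 2 slices was measured as the sum over genes of the lower of the 2 shares. Of the 28 pairs of slices, the highest were vehicle 2 with 4 (76.5%), vehicle 1 with 3 (65.4%), FGF23 1 with 3 (61.5%) and FGF23 2 with 4 (46.0%), and the fifth was vehicle 2 with 3 (38.3%). The other 8 pairs within a treatment ran from 28.6 to 38.3% and the 16 pairs across treatments from 20.8 to 36.7%. Slices with the same number in both treatments overlapped by 20.8 to 36.7%. Distance over all other genes was measured as the root mean square difference in log2 CPM. It was 0.246 to 0.456 in pairs 1 with 3 and 2 with 4 of a treatment. Other pairs were at 0.37 to 0.573 within a treatment and 0.278 to 0.632 across treatments, so the ranges overlapped. Vehicle 1 with 3 (0.269) and vehicle 2 with 4 (0.302) lay below the other vehicle pairs (0.37 to 0.475). FGF23 2 with 4 had the lowest distance of the 28 pairs (0.246), and FGF23 1 with 3 (0.456) lay among the other FGF23 pairs.

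When slices 1 and 3, and 2 and 4, of each treatment were summed, a fit chosen after seeing the data, edgeR called 0% of 16881 genes. The study describes the slices of a treatment as biologically independent replicates, the labels do not name their mice, and whether the slices of a pair came from the same mouse was not tested.

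**Figure D5:**
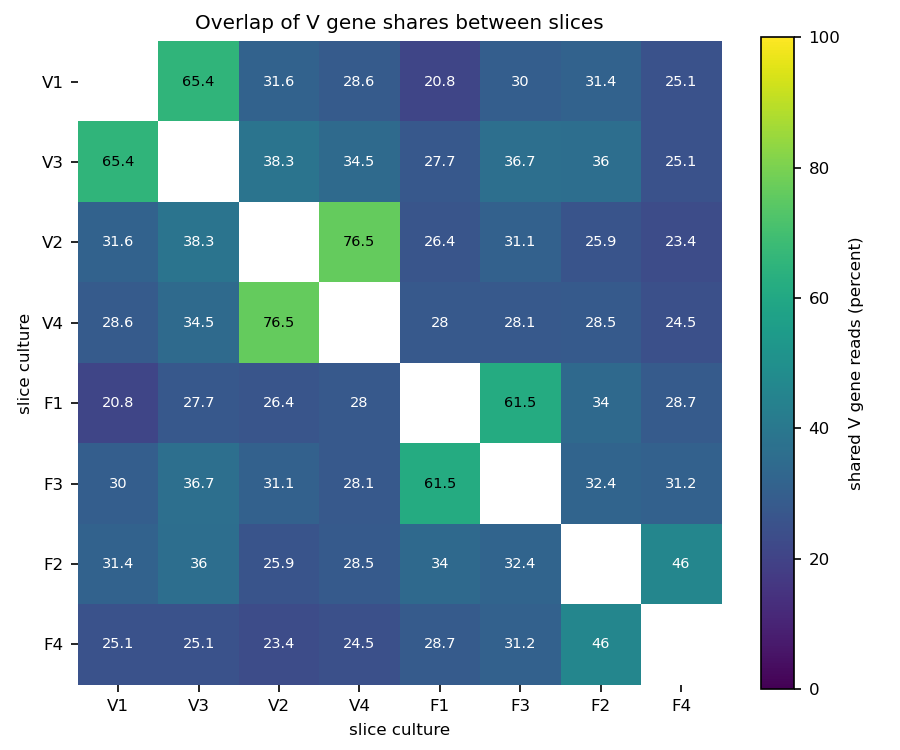
Percent of variable gene reads shared between each 2 of the 8 slices, as colour and number, with slices ordered V1, V3, V2, V4, F1, F3, F2, F4. The 4 pairs beside the diagonal, V1 with V3, V2 with V4, F1 with F3 and F2 with F4, stood at 46.0 to 76.5% and all other pairs at or below 38.3%.

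In the anti-GBM experiment the variable reads were fewer, and the leading gene differed between most mice. Ighv1-9 led the heavy chain reads of NTS7 and also of NTS13, a diseased mouse given FGF23. Among healthy mice, Ighv14-2 led the heavy chain reads of NTS9 and was tied for the lead in NTS10. Igkv9-120 led the kappa reads of NTS3 and was tied for the lead in NTS10. Mouse NTS7, diseased and given vehicle, had Igkv1-110 at 40% of 90 kappa reads (29.8 to 50.9) and Ighv1-9 at 38.9% of 54 heavy chain reads (25.9 to 53.1). Mouse NTS14, diseased and given FGF23, had Igkv1-117 at 25.4% of 142 kappa reads (18.4 to 33.3). The exons of these genes are those printed above with 10 differing positions.

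Other diseased mice in which a gene took over 20% were NTS16 (Ighv1-64 27.9% of 61 and Igkv1-99 21.4% of 84), NTS5 (Igkv8-30, 30.6% of 49) and NTS8 (Igkv4-55, 23.7% of 38, and Ighv3-8, 5 of 21 reads). Of the healthy mice, NTS4 had Ighv7-1 at 28.2% of 39 reads. Only 6 of the 14 mice had at least 100 variable reads, and their pairs overlapped by 23.5 to 33.8% within a group and by 17.6 to 41.6% between groups. The 16 Adriamycin mice had 13 to 62 variable reads each, too few for shares of single genes to be compared.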

How the data were processed

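Polyadenylated RNA of kidney tissue or slices was sequenced with stranded 58-base paired-end reads. Reads were aligned by the authors with STAR 2.7.9a to GRCm38. They assigned them to genes of Ensembl release 102 with featureCounts 1.5.1, and deposited raw read counts for 55487 genes, without normalization. Versions are those of the submitters' processing notes. Symbols were matched for 55141 genes and 346 had none, and columns not used numbered 0. Replicates differed beyond sampling noise, with a chi-square of at least 2.02 for each degree of freedom, so none was deposited again as another. The column of mouse NTS14 carries another name and was assigned from the header of a supplementary table. For the slices, the treatment row of such a header, which the labels follow, was used, and a row of short group codes there does not follow it.

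The groups of an experiment shared 1 fit: TMM scaling, filterByExpr with a minimum count of 10, and edgeR 4.0.16's quasi-likelihood test (R 4.3.3, limma 3.58.1), with Benjamini-Hochberg adjustment over all genes and a threshold of 0.05. The study names DESeq2, which was run as an alternative (1.42.0). On simulated counts, 200 genes were changed 2- or 4-fold between diseased and healthy mice, or between FGF23 and vehicle slices. The test recovered 179 in the anti-GBM design, 192 in the Adriamycin design and 176 in the slices. Of the 100 genes changed 2-fold it recovered 84, 92 and 77, and it called 13, 11 and 6 unchanged genes. The FGF23 and interaction contrasts of the mice were not simulated. Shares have exact Clopper-Pearson 95% intervals, a count of 0 is given a limit of 3 reads, and variable gene sequences were read from the genome at the annotated exons with Biopython 1.88.

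Named genes are all constant genes and Jchain, the highest variable genes, those leading over 20% of a library's variable reads (for the Adriamycin mice, by their range), those next to the count limit, and of each gene list up to 4 that passed, by smallest p, with any others added after their values were seen. A few genes the rule takes are not reported here. The genes and lists were chosen with earlier results of these data known, so no p-value is given for a list. Alternatives were DESeq2, RLE scaling, no filter, a robust fit, a fold change cutoff, the compared groups only, each library left out, a block for the slice number, other count limits for the genes kept, and summed slices, the last added after seeing the data.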

Additional observations from a re-analysis of the deposited data

Results flagged for a closer look

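In groups of 4, a value was singled out when its gap to the nearest other took most of the group's range (Dixon's 95% limit), and 6 of the 68 gene and group sets examined did so, where chance gives about 1 in 20 groups. Igkv1-110 was at 1.849 CPM in diseased anti-GBM mouse NTS7, against 0 to 0.144 in the other 3 mice of the vehicle group. In FGF23 slice 3, Igkv10-96 was at 1.298 CPM, against 0.1659 to 0.2729 in the other FGF23 slices, and Iglc1 was at 11.07 CPM, against 0.7741 to 1.729. Vehicle slice 1 had Ighg1 at 6.126 CPM, against 0.1512 to 0.7053, and vehicle slice 3 had Ighm at 7.405 CPM, against the narrow range of 6.275 to 6.327 in the other vehicle slices. Ighd was at 0.954 CPM in Adriamycin mouse Ad8, given vehicle, against 0.3673 to 0.4303 in the other 3 mice of that group.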

How the results depend on the processing

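In anti-GBM disease, 5 genes of the set were called by edgeR: 2 in vehicle-treated mice alone, 3 in FGF23-treated mice alone, 9 without the filter, 3 above an absolute log2 fold change of 1, and 3 to 7 with each mouse left out, the lowest without NTS6. In the slices 0 were called, but 2 without the filter and 2 by DESeq2, Ighv2-2 and Igkv8-24 each time, and 0 with summed slices or with each slice left out. With the replicate block of the slice numbers 0 were called as well. Deviations of slices with the same number correlated at 0.106, 0.106, -0.104 and 0.108, not all over 0.1, so the number was not used as a pairing. No paired analysis was possible because the columns of the anti-GBM and Adriamycin mice carry no numbers shared between groups. The set had 38 genes at a limit of 5 counts and 54 at 10 counts in 1 library, instead of 17. The median share of the leading kappa variable gene was 16.65% over 38 libraries and 57.1% when counted over the genes of the set alone.

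The Iglc1 fold change in anti-GBM disease, near 0, turned to 0.024 without the filter, 0.045 by DESeq2 and -0.70 to 0.38 with each mouse left out. In the slices, Igkc, Igha and Jchain moved by over 1.5 times without FGF23 slice 3 or vehicle slice 1. Ighd ran from -0.41 to 0.24 and Ighmbp2 from -0.12 to 0.048 with each slice left out. The summed level of each group moved by under 1 SD in every alternative, though that of the FGF23 slices went from 73.2 to 44.59 CPM without slice 3. Depth limits the IgG and variable genes, which had 0 to a few reads in most mice.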

Other observations

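After the mean of each group was subtracted, Spearman's rank correlation of log2 CPM with Igkc over the 38 libraries was 0.691 for Jchain, 0.676 for Igha, 0.327 for Ighm and 0.155 for Ighd. Among the 13974 genes compared, those outside the set with high values included Tigd3 (0.623), Pbx2 (0.592), Gemin8 (0.575) and Tbx2 (0.568). The libraries of a group share strain and experiment, and the values are a description.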
